A study of Mus musculus with 6 samples.

Results

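A set of 10 genes of ammonia disposal and amino acid breakdown were followed in mouse liver tumours with and without GLI1. Of the 43346 genes in the deposited count table, the 10 were taken by name, 7 for the urea cycle (Nags, Cps1, Otc, Slc25a15, Ass1, Asl and Arg1) and 3 for amino acid breakdown in hepatocytes near the portal vein (Gls2, Hal and Sds). All 10 were found and all 10 were kept for testing among 18359 genes. RNA was sequenced from 6 tumours that arose after diethylnitrosamine (DEN), a carcinogen activated by hepatocytes, in mice overexpressing the heparan sulfate editing enzyme SULF2, labelled Sulf2-TTR. The labels expand TTR no further and give no age or strain. There were 3 libraries with wild-type Gli1 (WT) and 3 with Gli1 knocked out (KO), so both groups share the transgene and the carcinogen, and there was no tumour without them and no normal liver. Whether the tumours came from separate mice is not in the labels, so p-values measure only the spread between these libraries. The comparison addresses what loss of the Hedgehog transcription factor GLI1 changes in such tumours.

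The urea cycle turns ammonia, which is toxic, into urea for excretion, and it runs in full only in hepatocytes. Its first steps take place in mitochondria and its later steps in the cytosol, with the amino acid ornithine shuttling between them. In normal liver the cycle is strongest around the portal vein, where glutamine and other amino acids are also broken down, while the cells around the central vein capture leftover ammonia as glutamine. Liver tumours are known to rearrange the expression of these enzymes.

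Summed gene counts were 75205624 to 132979502 reads per library, and each of the 10 genes had at least 3550 reads in each library. Gli1 itself had 10, 20 and 7 reads in WT replicates 1, 2 and 3 and 4, 3 and 3 reads in the KO replicates, in the direction of the labels. Which part of Gli1 was deleted is not given in the labels. WT replicate 3 and KO replicate 1 lay apart from the other 4 libraries on the first principal component, at 80.9 and 65.2 against -67.9 to -7, and results are given with and without them where they matter. Hepatocyte markers were abundant in all 6 libraries. Summed over 9 markers matched of 10 listed, among them albumin and apolipoproteins, they came to 163392 to 225632 normalized CPM in WT and 164040 to 186305 in KO. Most of each sum was albumin alone, at 127663 to 167494 in WT and 114643 to 132598 in KO. Normalized CPM are read counts scaled to a common library size by the TMM method.

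Promoter sequence is shown for 3 of the genes because GLI1 acts by binding DNA, and because the window before the start site is where a sequence match could be looked for. The table of RefSeq promoters (GRCm38.p6) held 5 of the 10 genes (Ass1, Slc25a15, Hal, Nags and Otc), in 6 entries. Shown are the 250 bases before the start site, read 5′ to 3′ on the gene's strand, for the 3 genes whose window overlaps no annotated exon. Capitals mark a C/EBP core match. The windows are chr10:93488518-93488767 (plus strand) for Hal, chrX:10252055-10252304 (plus strand) for Otc and chr11:102145263-102145512 (plus strand) for Nags.
Hal: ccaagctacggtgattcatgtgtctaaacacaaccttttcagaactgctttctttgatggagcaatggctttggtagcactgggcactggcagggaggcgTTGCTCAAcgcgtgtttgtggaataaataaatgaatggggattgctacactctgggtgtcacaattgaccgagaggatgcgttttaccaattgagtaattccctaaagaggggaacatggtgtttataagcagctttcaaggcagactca
Otc: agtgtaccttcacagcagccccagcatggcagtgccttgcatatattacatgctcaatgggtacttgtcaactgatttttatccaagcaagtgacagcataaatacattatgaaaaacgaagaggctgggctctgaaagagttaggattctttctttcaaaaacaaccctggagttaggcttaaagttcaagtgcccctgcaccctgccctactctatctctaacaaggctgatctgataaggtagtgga
Nags: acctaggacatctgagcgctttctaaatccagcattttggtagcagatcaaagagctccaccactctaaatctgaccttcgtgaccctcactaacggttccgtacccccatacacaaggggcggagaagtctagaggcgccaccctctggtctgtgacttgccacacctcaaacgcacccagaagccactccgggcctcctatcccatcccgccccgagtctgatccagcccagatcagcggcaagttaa

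The GLI motif GACCACCCA, searched on both strands, was in 0 of the 6 windows and in 0.225% of 32851 promoters. The cyclic AMP response element TGACGTCA was in 0 of 6 against 1.55% of all promoters, the HNF4 motif CAAAGTCCA in 0 of 6 against 0.384%, and the glucocorticoid receptor motif TGTTCT in 0 of 6 against 16.1%. The C/EBP core TTGCNNAA was in 1 of 6 against 9.56%, and that match was TTGCTCAA at bases -150 to -143 of Hal. These are matches of letters in short windows and say nothing about binding.

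No member passed the test between genotypes. In edgeR's quasi-likelihood test, 0 of 10 members passed FDR 0.05, against 0% of all 18359 genes, and all 10 had an FDR of 1. At an unadjusted p under 0.05 there were 0 members against 3.62% of all genes (665 genes). DESeq2 called 0 members against 0.317% of the genes it adjusted over, and at its unadjusted p it had 1 member, Asl, against 3.88%. Log2 fold changes (KO minus WT) were below 0 for 8 of the 10 members, against 51.8% of all genes, with a median of -0.36 against -0.01 over all genes. That median was -0.001 without KO replicate 1, -0.125 without WT replicate 2 and -0.13 without both WT replicate 3 and KO replicate 1. In normalized CPM, KO replicate 1 had the lowest level of all 6 libraries for each of the 10 members.

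**Figure D1:**
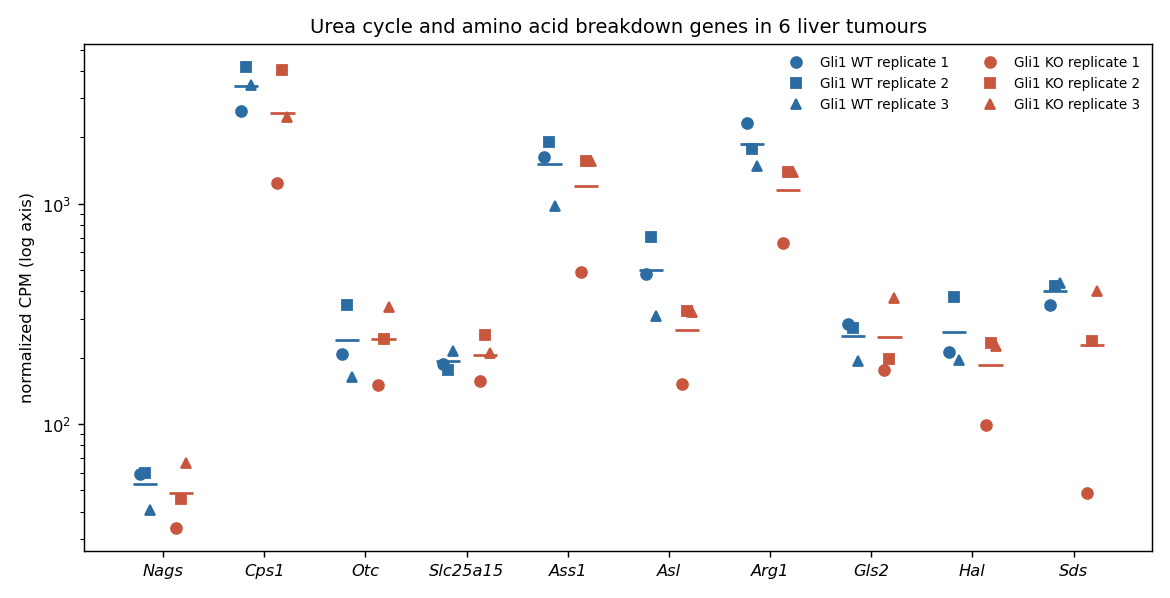
Normalized CPM on a log axis for the 10 genes in each of the 6 libraries, with blue symbols for Gli1 WT, red for Gli1 KO, the symbol shape for the replicate and a short line at each group mean. The red circle of KO replicate 1 is the lowest point for all 10 genes, and KO replicates 2 and 3 lie within the WT range for some genes (Otc) and below it for others (Arg1).

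Nags makes N-acetylglutamate, the activator without which the first enzyme of the cycle does not work. It was the least abundant member per length in all 6 libraries, at 11.6 to 22.4 RPKM as deposited, a unit that scales reads by gene length and depth. WT replicates 1, 2 and 3 had 59.5, 60.1 and 40.9 normalized CPM, against 33.7, 45.7 and 66.6 in the KO replicates in the same order. The groups overlapped, with KO replicate 3 the highest of all and KO replicate 1 the lowest. KO minus WT, this came to a log2 fold change of -0.14 ± 0.29 (SE), with 3 libraries in each group. Gm11586, annotated on the opposite strand within Nags, had 465 to 1144 reads, and with no strand setting stated, reads of the overlapping stretch cannot be assigned with certainty.

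Cps1, carbamoyl phosphate synthetase, performs the first and committed step, joining ammonia and bicarbonate in the mitochondrion. It lies on chromosome 1 (67123026 to 67231259, read as GRCm38). Normalized CPM were 2628, 4165 and 3461 in WT libraries against 1234, 4033 and 2481 in KO libraries. KO replicate 2 lay in the upper part of the WT range, KO replicate 3 lay just under it, and KO replicate 1 had less than any other library. The group means were 3418 ± 769 (SD, n = 3) in WT and 2583 ± 1403 in KO, and the log2 fold change of -0.40 ± 0.46 (SE) became -0.06 without KO replicate 1 and -0.87 without KO replicate 2.

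Otc, ornithine transcarbamylase, makes citrulline from carbamoyl phosphate and ornithine and lies on the X chromosome. Its normalized CPM were 207, 348 and 164 in WT libraries against 150, 243 and 338 in KO libraries. WT libraries spanned 2.13-fold and KO libraries 2.26-fold, and the means were 239 and 244. The difference was 0.03 ± 0.40 on the log2 scale (SE), and its sign turned without KO replicate 3 (-0.29), WT replicate 3 (-0.19) or WT replicate 1 (-0.07).

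Slc25a15 encodes the mitochondrial carrier that brings ornithine in and takes citrulline out. It was the most even member, with normalized CPM of 187, 175 and 215 in WT libraries against 157, 253 and 209 in KO libraries, a 1.61-fold range over all 6 libraries. Its log2 fold change was 0.10 ± 0.23 (SE) and was -0.06 without KO replicate 2. Its paralog Slc25a2, a second ornithine carrier, was hardly counted, with 26, 20 and 15 reads in WT libraries against 2, 12 and 9 in KO libraries. Slc25a2 had a log2 fold change of -1.79 ± 0.67 (SE) with an unadjusted edgeR p of 0.0326 and an FDR of 1.

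Ass1, argininosuccinate synthetase, joins citrulline and aspartate in the cytosol. Normalized CPM were 1633, 1908 and 970 in WT libraries against 490, 1564 and 1552 in KO libraries. WT replicate 3 and KO replicate 1 were the lowest libraries of their groups, and the other 4 libraries lay between 1552 and 1908. The log2 fold change of -0.32 ± 0.50 (SE) turned to 0.06 without KO replicate 1, and was -0.18 without both that library and WT replicate 3.

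Asl, argininosuccinate lyase, releases arginine and fumarate, and it had the smallest p of the 10 members. It lies on the minus strand of chromosome 5 (130011258 to 130025132). Normalized CPM were 481, 702 and 308 in WT libraries against 151, 326 and 323 in KO libraries. The KO values were below WT replicates 1 and 2, but WT replicate 3 was lower than KO replicates 2 and 3, so the groups overlapped. The means were 497 ± 197 (SD, n = 3) and 267 ± 99.9, with a log2 fold change of -0.90 ± 0.42 (SE), an unadjusted edgeR p of 0.071 and an FDR of 1. Leaving out single libraries gave -1.15 without WT replicate 3 to -0.56 without WT replicate 2, always negative, and without both WT replicate 3 and KO replicate 1 it was -0.86. The unadjusted edgeR p of Asl was 0.0298 without WT replicate 3 and 0.0294 without both libraries, at FDR of 0.5 and 0.699.

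Arg1, arginase, splits arginine into urea and ornithine and closes the cycle. It lies on the minus strand of chromosome 10 (24915208 to 24927470). It was the most abundant member per length in every library, at 437 to 1204 RPKM. Normalized CPM were 2315, 1775 and 1485 in WT libraries against 663, 1389 and 1388 in KO libraries. Arg1 was the single member whose groups did not overlap, against 8.11% of all genes (3.96% with KO below WT, 4.15% with KO above), and the gap between the lowest WT and the highest KO library was small beside the range within either group. The means were 1859 ± 421 (SD, n = 3) and 1146 ± 419, with a log2 fold change of -0.70 ± 0.36 (SE), an unadjusted edgeR p of 0.0994 and an FDR of 1. Without KO replicate 1 the log2 fold change was -0.41. Arg2, the mitochondrial arginase of other tissues, had 0.45 to 0.90 normalized CPM over the 6 libraries (log2 fold change -0.50 ± 0.36, SE, and -0.28 without WT replicate 3). Arg1 is also made by some macrophages. Summed over 8 of 8 macrophage markers, those cells' genes came to 117 to 402 normalized CPM in WT and 70.8 to 149 in KO, with 0 markers at 0 reads, and their part in the Arg1 values was not tested.

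Gls2, the liver glutaminase, releases ammonia from glutamine in periportal mitochondria and so feeds the cycle. Normalized CPM were 283, 273 and 192 in WT libraries against 176, 198 and 371 in KO libraries. KO replicate 3 was the highest of all libraries and the other KO libraries were near or below WT replicate 3. The means were 249.2 and 248.0, the log2 fold change was -0.01 ± 0.34 (SE), and its sign turned with several single libraries left out (0.20 without KO replicate 1). Spryd4 overlaps the end of Gls2 on the opposite strand and had 2135 to 4235 reads.

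Hal, histidine ammonia-lyase, starts the breakdown of histidine to glutamate. Its normalized CPM were 212, 378 and 195 in WT libraries against 98.7, 232 and 225 in KO libraries. WT replicate 2 was far above the rest and KO replicate 1 far below, while the other 4 libraries lay between 195 and 232. Its log2 fold change of -0.50 ± 0.41 (SE) was -0.14 without WT replicate 2 and -0.19 without KO replicate 1. The next enzymes of the pathway did not share its direction throughout. Uroc1, urocanate hydratase, had 0.06 ± 0.33 (SE), Amdhd1 of the same pathway had 0.15 ± 0.32, and Ftcd, which transfers the formimino group to folate, had -0.10 ± 0.35.

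Sds, serine dehydratase, turns serine into pyruvate and ammonia for glucose production and is known to respond to glucagon. It had the widest range of the 10 members. Normalized CPM were 347, 420 and 436 in WT libraries against 48.6, 237 and 401 in KO libraries. The KO libraries spanned 8.24-fold against 1.26-fold in WT, and KO replicate 3 lay within the WT range. The log2 fold change of -0.81 ± 0.66 (SE) had an unadjusted edgeR p of 0.263, became -0.32 without KO replicate 1 and was -1.48 without KO replicate 3. Its paralog Sdsl had much less, 7.95 to 18.8 normalized CPM, and a log2 fold change of -0.29 ± 0.29 (-0.05 without KO replicate 1 or without WT replicate 1). Sds overlaps Gm15690 (1198 to 9142 reads) and the end of Plbd2 (6483 to 16780 reads), both on the opposite strand.

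**Figure D2:**
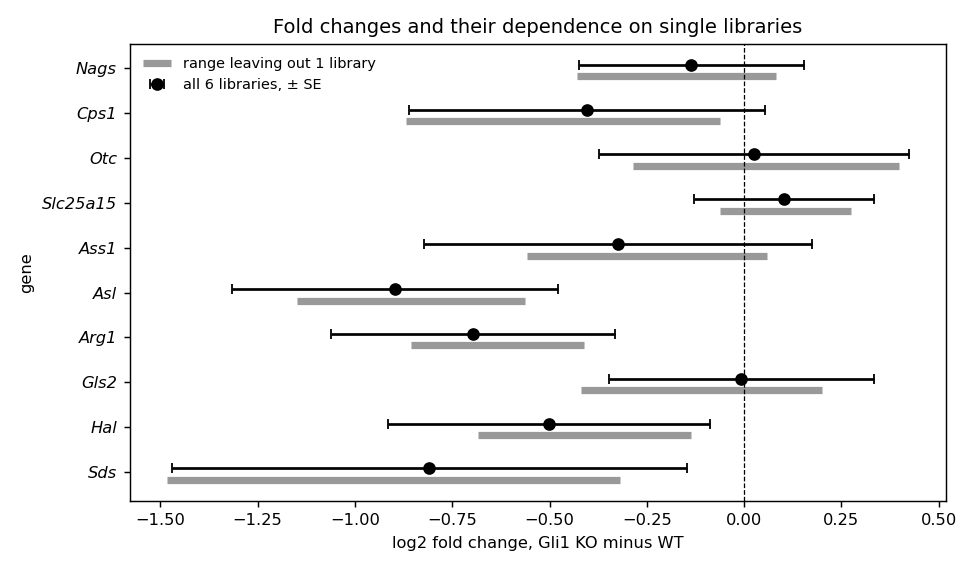
Log2 fold change (Gli1 KO minus WT) of the 10 genes, with black points and bars for the edgeR estimate ± SE and grey bars for its range when each of the 6 libraries is left out in turn. The grey bars of Asl, Arg1, Hal, Sds and Cps1 stay below 0, and those of the other 5 genes cross it.

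Per length, the top and the bottom of the order were the same in all 6 tumours and the middle was not. By median RPKM the order was Arg1 (867), Ass1 (547), Cps1 (469), Sds (193), Asl (65.5), Gls2 (56.5), Slc25a15 (47.6), Otc (44.1), Hal (33.2) and Nags (15.2). Arg1 was first and Nags last in 6 of 6 libraries, and Cps1 was above Sds and Otc above Hal in 6 of 6. Ass1 exceeded Cps1 in 3 of 6, so these neighbours did not differ beyond their spread, and Asl, Gls2, Slc25a15 and Otc traded places as well. Between neighbours the ranges over the 6 libraries overlapped in every case. Sds had rank 4 in 5 libraries and rank 8 in KO replicate 1, Gls2 ran from rank 4 to 8 and Slc25a15 from 5 to 9. The ratio of Arg1 to Asl RPKM was 13.2 to 14.9 in 5 libraries and 7.82 in WT replicate 2, the tumour with the most Asl.

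KO replicate 1 stood apart from all other tumours in these genes. The 10 members summed to 8353, 10204 and 7467 normalized CPM in WT replicates 1, 2 and 3 and to 3201, 8519 and 7354 in the KO replicates. They took 0.352% of all counts in KO replicate 1 and 0.693 to 1.03% in the other 5 libraries. By normalized CPM, KO replicate 1 was the lowest library for 10 of 10 members, against 14.6% of all genes tested. The share was 21.6% of the 3968 genes averaging at least 30 normalized CPM, as all 10 members do. Among all genes the other libraries were lowest for 10.5% to 23.2%. This library was singled out after its values were seen. The size of the gap differed between genes. Relative to the mean of the other 5 libraries, KO replicate 1 had 13.2% of the Sds level, 32.1% for Ass1, 35.4% for Asl, 36.8% for Cps1, 39.7% for Arg1 and 39.8% for Hal. It had 57.7% for Otc, 61.8% for Nags, 66.8% for Gls2 and 75.5% for Slc25a15. For Otc, Gls2, Slc25a15 and Nags, KO replicate 1 was within 1.21-fold of the next lowest library, whereas for the other 6 the gap was 1.98-fold to 4.88-fold. WT replicate 3 was the next lowest library for 6 members, and WT replicate 2 the highest for 5. In deposited RPKM, which lack the TMM scaling, KO replicate 1 was not the lowest library for Otc, Gls2 and Slc25a15. Otc had 34.4 RPKM there against 31.6 in WT replicate 3, and Gls2 had 49.3 against 45.4 in WT replicate 3. Slc25a15 had 44.3 against 41.6 and 43.0 in WT replicates 1 and 2. The other members were lowest in KO replicate 1 by RPKM too.

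**Figure D3:**
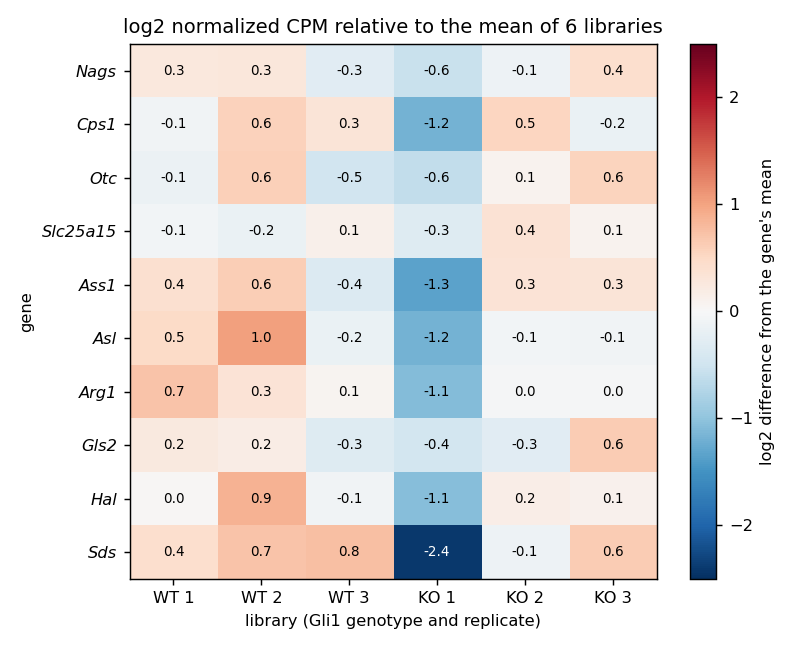
Log2 normalized CPM of the 10 genes (rows) in the 6 libraries (columns), as the difference from each gene's mean over all libraries, printed in each cell and coloured from blue (lower) to red (higher). The column of KO replicate 1 is blue in all 10 rows, darkest for Sds, while the columns of KO replicates 2 and 3 hold both colours.

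Hepatocyte markers as a whole were not as low in that tumour. KO replicate 1 was the lowest library for 3 of 9 of them, and their median log2 difference from the mean of 6 libraries was -0.08 there, against -1.08 for the 10 members. Related lists were also low there, at -0.56 for other amino acid breakdown enzymes, -0.41 for other periportal genes and -0.34 for ammonia and glutamine genes. In bulk tumour RNA, fewer cells of a type and less RNA per cell cannot be told apart. Stellate cell and fibroblast markers (8 of 8 tested) summed to 705 normalized CPM in KO replicate 1, 302 and 307 in the other KO libraries and 134 to 418 in WT. Cholangiocyte markers (7 of 7) summed to 448 in KO replicate 1 and 492 in WT replicate 3, against 52.0 to 487 in the other 4 libraries, with Cftr at 0 in KO replicate 3. Spp1 alone made up 413 of the sum in KO replicate 1, 457 in WT replicate 3 and 465 in KO replicate 3. The median log2 difference over the 7 genes was 0.54, 1.24 and -0.71 in these libraries. Cell cycle genes (8 of 8) summed to 60.4 in KO replicate 1, within the range of 28.5 to 163 over the other libraries. Macrophage markers (8 of 8) summed to 70.8 in KO replicate 1, 142 and 149 in the other KO libraries and 117 to 402 in WT. Their median log2 difference in KO replicate 1 was -1.44, below that of the members, and that library was lowest for 4 of the 8. Endothelial markers (7 of 7) summed to 217 to 257 in WT and 144 to 182 in KO, lymphocyte markers (8 of 8) to 5.01 to 8.27 and 2.57 to 4.01, and neutrophil markers (7 of 8 tested) to 10.4 to 44.6 and 5.17 to 9.90, with Ly6g at 0 in KO replicate 3. The endothelial markers differed among themselves, with 5 negative and 2 positive log2 fold changes. The positive ones, Pecam1 (0.009) and Cdh5 (0.068), were highest in KO replicate 1, at 40.5 and 44.4 normalized CPM. Across these lists 0 genes passed edgeR's FDR 0.05 and 1 neutrophil marker was called by DESeq2. The part of these in the low levels of KO replicate 1 was not tested.

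**Figure D4:**
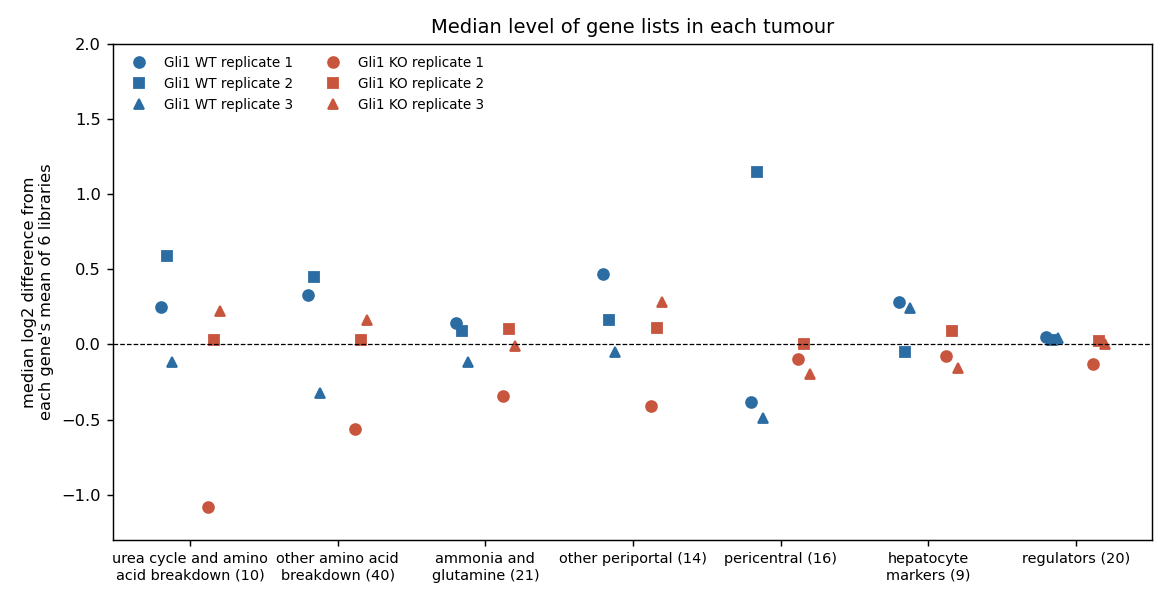
Median log2 difference from each gene's mean over 6 libraries, for 7 gene lists (number of genes in brackets) in each library, with blue for Gli1 WT, red for Gli1 KO and the symbol shape for the replicate. KO replicate 1 lies at -1.08 for the urea cycle and amino acid breakdown genes and at -0.08 for hepatocyte markers, and WT replicate 2 is the high point of the pericentral list at 1.15.

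Other enzymes of amino acid breakdown also gave no call between genotypes. Of 40 such enzymes, all tested, 0 passed edgeR's FDR 0.05 and 0 were called by DESeq2, 32 were negative and 8 positive, and the median log2 fold change was -0.30. KO replicate 1 was the lowest library for 25 of the 40 and WT replicate 3 for 11, against 14.6% and 23.2% of all genes tested. At an unadjusted edgeR p under 0.05, 4 of the 40 were lower in KO, against 2.02% of all genes tested, and 0 were higher. Those of smallest p were Cbs, Mat1a and Bhmt. Cbs, which condenses homocysteine with serine, stood at normalized CPM of 356, 277 and 161 in WT libraries against 101, 140 and 181 in KO libraries (log2 fold change -0.91 ± 0.36, SE). Mat1a, which makes S-adenosylmethionine, had 5077, 4670 and 3311 in WT libraries against 1639, 2837 and 2830 in KO libraries, without overlap (-0.84 ± 0.33). It was the single gene of the 40 without overlap, against 8.11% of all genes tested. Bhmt, which returns homocysteine to methionine, had 2875, 2087 and 688 in WT libraries against 182, 913 and 565 in KO libraries (-1.77 ± 0.72). All 3 had an FDR of 1, and their lowest library was again KO replicate 1. Without that library the log2 fold changes of Cbs, Mat1a and Bhmt were -0.71, -0.61 and -1.34. Without both WT replicate 3 and KO replicate 1 they were -0.97, -0.78 and -1.74.

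Genes that handle ammonia and glutamine around the cycle had 18 of 21 negative and 3 positive, a median log2 fold change of -0.15 and 0 calls by edgeR or DESeq2. Of these, Glul, Oat, Slc1a2 and Rhbg are also in the pericentral list, so the lists are not independent. All of these shared genes were negative and highest in WT replicate 2. Glud1, glutamate dehydrogenase, which frees or binds ammonia, went against the members in KO replicate 1. It had 869, 1003 and 916 normalized CPM in WT libraries against 1664, 831 and 756 in KO libraries, so that KO replicate 1 was the highest library, and its log2 fold change of 0.22 ± 0.35 (SE) was -0.22 without that library. Slc25a13, the carrier that supplies aspartate for Ass1, had 137 to 255 normalized CPM and a log2 fold change of -0.09 ± 0.28, and its isoform gene Slc25a12 had 11.0 to 23.3 and -0.40 ± 0.25 (-0.23 without KO replicate 1). Glul, glutamine synthetase, which captures ammonia around the central vein, had 58.3, 581 and 91.4 in WT libraries against 87.4, 112 and 110 in KO libraries. Its high value was that of WT replicate 2 alone, and the log2 fold change of -1.24 ± 0.83 turned to 0.47 without it. Slc1a2, a glutamate transporter of the same cells, likewise had 126 in WT replicate 2 against 5.47 to 16.5 elsewhere (-1.80 ± 1.09, and 0.68 without WT replicate 2).

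WT replicate 2 had the most Glul, and it was the highest library for 11 of 16 pericentral genes and for 5 of the 10 members (Cps1, Otc, Ass1, Asl and Hal). Among all genes tested it was highest for 20%, and for 21.5% of those averaging at least 30 normalized CPM. Slc25a15 was second lowest there, and Nags, Arg1, Gls2 and Sds were highest in other libraries. KO replicate 1, lowest for all members in normalized CPM, was lowest for 2 of the 16 pericentral genes, against 14.6% of all genes tested. The pericentral list had 9 negative and 7 positive, a median log2 fold change of -0.48 and 0 calls by edgeR or DESeq2. Among its genes of smallest p were Lect2, a secreted hepatocyte protein, at 1.39 ± 0.64 (SE), which was 142 normalized CPM in KO replicate 1 against 17.1 to 42.3 elsewhere, the monooxygenase Cyp1a2 at -1.73 ± 0.89 and the sterol hydroxylase Cyp27a1 at -1.07 ± 0.65. Without WT replicate 2, Cyp1a2 was -0.03 and Cyp27a1 -0.01, and without KO replicate 1 Lect2 was 0.37.

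The other periportal genes were mixed. Of 14, 9 were negative and 5 positive, with a median log2 fold change of -0.14 and 0 calls by edgeR or DESeq2. KO replicate 1 was lowest for 7, against 14.6% of all genes tested. G6pc, the last enzyme of glucose release, had 20.2, 72.1 and 49.0 normalized CPM in WT libraries against 76.6, 109 and 108 in KO libraries, without overlap and in the opposite direction to most members (log2 fold change 1.05 ± 0.44, SE, FDR 1, and 0.69 without WT replicate 1). Pigr, which carries immunoglobulin A into bile, had 1077, 1174 and 1227 in WT libraries against 320, 657 and 972 in KO libraries, also without overlap (-0.84 ± 0.41, and -0.50 without KO replicate 1). Fbp1 had 993, 675 and 625 in WT libraries against 364, 580 and 584 in KO libraries, again without overlap (-0.585 ± 0.302). Of the 14, 2 had every KO library below every WT library and 1 above, against 3.96% and 4.15% of all genes tested. Igfals, the subunit that stabilizes circulating IGF1, had -1.85 ± 0.93 (-0.84 without WT replicate 2).

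Regulators known to act on these enzymes were close to even in direction between genotypes. Of 20 factors and receptors, 11 were negative and 9 positive, with a median log2 fold change of -0.05 and 0 calls by edgeR or DESeq2. At an unadjusted edgeR p under 0.05, 2 of the 20 were lower in KO and 1 higher, against 3.62% of all genes tested in either direction. The transcription factor Foxa1 had 11.6, 11.8 and 13.3 normalized CPM in WT libraries against 17.2, 14.1 and 18.02 in KO libraries (0.43 ± 0.17, SE). Crtc2, a coactivator in glucagon signalling, had 33.0, 40.2 and 21.4 in WT libraries against 16.5, 20.8 and 22.6 in KO libraries (-0.66 ± 0.26). Cebpb, a C/EBP factor, had 26.3, 27.3 and 27.2 in WT libraries against 15.2, 21.4 and 22.8 in KO libraries (-0.44 ± 0.19, and -0.28 without KO replicate 1). Foxa1 (KO above) and Cebpb (KO below) were the regulators of the 20 without overlap between groups, against 8.11% of all genes tested. Crtc2 overlapped, and all 3 had an FDR of 1. KO replicate 1 was the lowest library for 3 of the 20, against 14.6% of all genes tested.

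**Figure D5:**
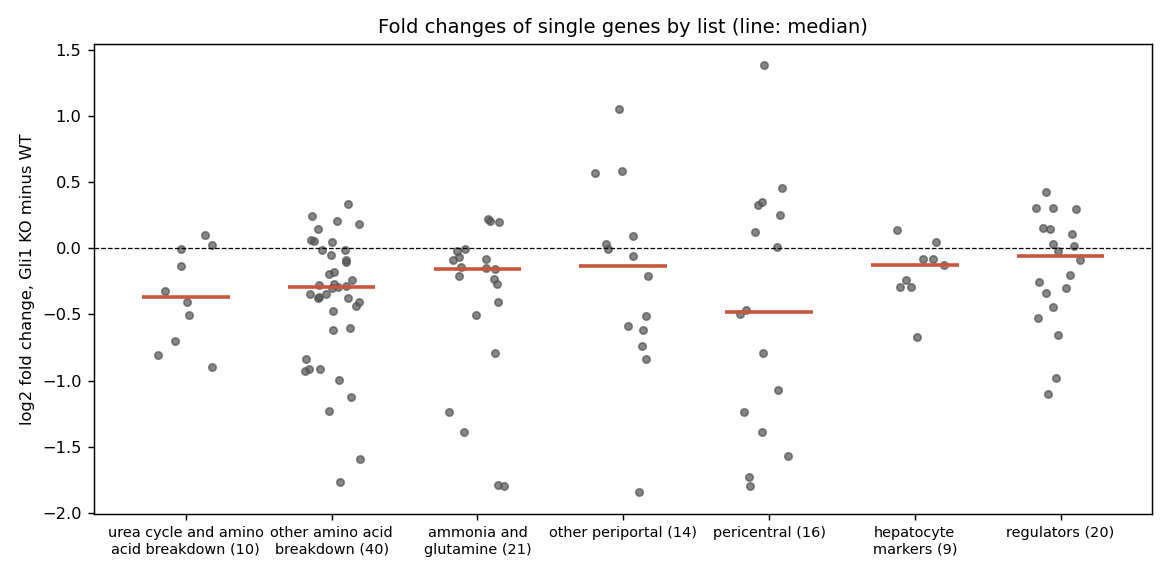
Log2 fold change (Gli1 KO minus WT) of single genes, one point per gene, in the same 7 lists (number of genes in brackets), with a red line at each list's median. The medians lie between -0.48 for pericentral genes and -0.05 for regulators, and 0 of these genes passed FDR 0.05.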

How the data were processed

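RNA from 6 mouse liver tumours was sequenced. The authors deposited raw read counts and RPKM values per gene and library. The tools named, per the submitters' processing notes, are HTSeq, TopHat2 2.0.6 and bcl2fastq, without roles, and the builds are the human hg19 and GRCh37. The identifiers are mouse Ensembl ones, and 99.8% of the 42462 shared with GENCODE M21 start within 100 kb of its GRCm38 position, so the deposited coordinates are taken to be GRCm38. For strand, the setting of the counting was not given in the sources used here. RPKM values, as deposited, use the file's coding length and a library total 12.6 to 19.0% above the summed counts. They served for levels between genes and for a check of the lowest library.

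The main test on the deposited counts was that of edgeR 4.0.16 under R 4.3.3 (filterByExpr, TMM factors, robust quasi-likelihood test, two-sided, Benjamini-Hochberg adjustment over 18359 genes, threshold FDR 0.05). DESeq2 1.42.0 and limma 3.58.1 (voom) were alternatives, with RLE factors, other filters, removal of the 10 most counted genes, a replicate block, a covariate for the number opening the sample description (under 2000 or above 3900) and left-out libraries. The edgeR fit was tested on simulated data. Each SE was computed as the absolute log2 fold change divided by the square root of the F statistic of the edgeR test. Log2 differences from a gene's mean in the gene lists used a pseudocount of 0.5 CPM. The 10 genes and all lists were chosen with earlier results of these data known. Named genes were all 10 members, the 3 of smallest p in each related list and 8 genes in neighbouring steps. Amdhd1, Fbp1, Oat and Rhbg were named in addition. Of 191 list entries, 190 matched. Depth was 75205624 to 132979502 counts per library.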

Additional observations from a re-analysis of the deposited data

How the results depend on the processing

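The count of members past FDR 0.05 was 0 under all 15 alternatives, DESeq2 and limma included, and at FDR 0.1. Of 478 gene values recomputed, 455 kept the direction and 23 took the opposite one, and 5 of the 10 members (Cps1, Asl, Arg1, Hal and Sds) never did. Genes called over the whole table were 0 by edgeR in every setting run and by limma, and 62 by DESeq2, and genes at an unadjusted p under 0.05 numbered 665, against 1090 by DESeq2, 1238 without WT replicate 3 and KO replicate 1, and 507 to 1779 without single libraries (1779 without WT replicate 3). The cause was not tested. The members' median log2 fold change ran from -0.62 to -0.001 without single libraries. So computed, ranges crossing 0 were -0.29 to 0.40 for Otc, -0.56 to 0.059 for Ass1, -0.43 to 0.081 for Nags, -0.061 to 0.27 for Slc25a15, -0.42 to 0.20 for Gls2, -2.33 to 0.68 for Slc1a2, -1.70 to 0.47 for Glul, -0.22 to 0.42 for Glud1, -0.27 to 0.13 for Slc25a13, -0.19 to 0.28 for Uroc1 and -0.31 to 0.34 for Ftcd. Gls2 was also 0.014 without a low-count filter. Without WT replicate 3 and KO replicate 1, Gls2 was 0.042, Slc25a15 0.357, Glud1 -0.231 and Slc25a13 0.034. With a replicate block the members' median was -0.49, with 0 members called. Correlations of deviations from the group mean between same-numbered samples were -0.29, 0.18 and -0.34, against 0.51 for WT replicate 3 with KO replicate 1. With 3 libraries per group such correlations cannot settle whether the numbers pair the samples. Depth limits the values of the lowest genes, Slc25a2 (2 to 26 reads) and Arg2 (37 to 80 reads).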
